A study of Homo sapiens with 6 samples.

Results

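The genes described here encode the human kinetochore and the parts of the mitotic apparatus that sit on it or report from it: 42 genes, of the 60671 genes in the count table, chosen by name for their place in centromeric chromatin, the constitutive centromere network, the outer kinetochore, the Ska complex, the spindle checkpoint, the chromosomal passenger complex and the shugoshins. All 42 symbols were found in the table and all 42 passed the filter on low counts. The genes were compared between 3 CD38 KO and 3 wild-type (WT) libraries of MM.1S, an established human multiple myeloma cell line.

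CD38 KO cells were a clone of MM.1S in which the gene for the surface enzyme CD38 had been disrupted with CRISPR/Cas9, so that everything reported for the knockout comes from 1 clone. WT cells were the parental MM.1S line with CD38 intact. Both lines also carried a lentivirus encoding GFP and click beetle red luciferase. Live cells, negative for the dead-cell dye 7-AAD, were sorted by CD38 staining, which kept CD38-negative cells of the knockout line and CD38-positive cells of the WT line, and 3 biological replicates of each line were then prepared from the sorted populations. Since the replicates came after sorting, p-values measure the spread between these samples. The study asked how the transcriptome of the knockout differs from that of the parental line.

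The kinetochore is the protein assembly that ties a chromosome to spindle microtubules in mitosis. It is built on nucleosomes that carry the histone variant CENP-A, through an inner layer (the constitutive centromere-associated network) that stays on the centromere through the cell cycle, and an outer layer (the KMN network of KNL1, the Mis12 complex and the Ndc80 complex) that binds microtubules. Kinetochores without attached microtubules start the spindle checkpoint, which holds back the anaphase-promoting complex, and Aurora B in the chromosomal passenger complex releases faulty attachments. Transcripts of many outer kinetochore, checkpoint and passenger genes are known to accumulate in G2 and mitosis, while other subunits are made more evenly through the cycle.

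CD38 itself (ENSG00000004468) had 51, 80 and 48 reads in the CD38 KO libraries, against 3148, 2678 and 2545 in the WT libraries. That was 0.972 ± 0.322 counts per 1000000 (CPM, reads relative to a library size corrected by TMM factors) in CD38 KO and 40.6 ± 1.90 CPM in WT (SD, n = 3 each), a log2 fold change of -5.39 (SE 0.134, adjusted p = 3.06e-16). Total counts were 61515519 to 65709440 in CD38 KO and 63606445 to 72335496 in WT. All 8 plasma cell markers looked at were expressed in both lines, with summed levels of 9084 ± 14.8 CPM in CD38 KO and 6969 ± 24.8 CPM in WT. Among them JCHAIN averaged 1950.1 CPM in CD38 KO and 943.2 CPM in WT, and XBP1 averaged 2217 CPM in CD38 KO and 1315 CPM in WT. TNFRSF17 (356 CPM in CD38 KO and 227 CPM in WT), IRF4 (861 and 762) and PRDM1 (899 and 768) also averaged higher in CD38 KO. SDC1 averaged 1235 CPM in CD38 KO and 1204 CPM in WT. MZB1 (1018 CPM in CD38 KO and 1188 CPM in WT) and POU2AF1 (547 and 561) averaged lower in CD38 KO. The B cell markers MS4A1, PAX5 and CD22 averaged under 0.06 CPM in both lines. The B cell marker CR2 was 19.4 CPM in CD38 KO and 51.1 CPM in WT. Summed markers of T cells averaged 5.92 CPM in CD38 KO and 2.19 CPM in WT. CD3E made up 4.83 CPM of that sum in CD38 KO and 0.979 CPM in WT, TRAC 0.518 CPM in CD38 KO and 0.770 CPM in WT, and CD2 0.546 CPM in CD38 KO and 0.381 CPM in WT, while CD3D and CD3G averaged under 0.05 CPM in both. Erythroid markers summed to 31.4 CPM in CD38 KO and 23.6 CPM in WT, nearly all HBB. The sums of the myeloid, epithelial and stromal lists averaged at most 1.91 CPM in CD38 KO and 2.57 CPM in WT. The part of these markers in the results was not tested.

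Most of the kinetochore genes were higher in CD38 KO. At an adjusted p under 0.05, 28 of 42 (66.7%) were higher, beside 22.8% of all 20120 genes tested, and 3 (7.14%) were lower, beside 21.6% of all genes tested. The other 11 did not pass the test. In either direction 31 of 42 (73.8%) were called, beside 44.4% of all genes tested. Scaled by library size alone, 24 of the kinetochore genes were higher and 5 lower, beside 3632 higher and 5570 lower over all genes in place of 4592 and 4342. Among the 9863 tested genes at or above the mean level of the lowest kinetochore gene (6.29 CPM), 32.1% were higher and 30.7% lower. The median log2 fold change of the 42 genes was 0.58, and the median over all tested genes was 0.00. The summed level of the 42 genes was 2281 ± 24.7 CPM in CD38 KO and 1492 ± 20.3 CPM in WT (SD, n = 3 each), a ratio of 1.53. For 31 of the 42 genes (73.8%) the CPM ranges of the lines were separate, beside 52.5% of all genes tested. These are bulk libraries, so more cells in a stage of the cycle and more transcript per cell cannot be told apart.

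The differences were uneven across the structure. Of the 13 genes called higher by at least 2-fold (30.95%, beside 6.00% of all genes tested), 1 was a centromeric histone, 3 belonged to the Ndc80 complex, 2 to the Ska complex, 2 to the checkpoint and corona, 4 to the passenger complex and 1 to the shugoshins. No kinetochore gene was lower by at least 2-fold, beside 5.26% of all genes tested. By group, the median log2 fold change was 0.12 for the 14 genes of centromeric chromatin and the constitutive network and 0.20 for the 10 of the KMN network. It was 0.84 for the 9 checkpoint and corona genes, 1.05 for the 2 shugoshins, 1.23 for the 3 Ska genes and 1.28 for the 4 passenger genes. The 28 genes outside the constitutive network had 22 higher, 1 lower and a median of 0.91. Replicates were close, with a median coefficient of variation over the 42 genes of 4.80% in CD38 KO and 5.11% in WT.

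**Figure D1:**
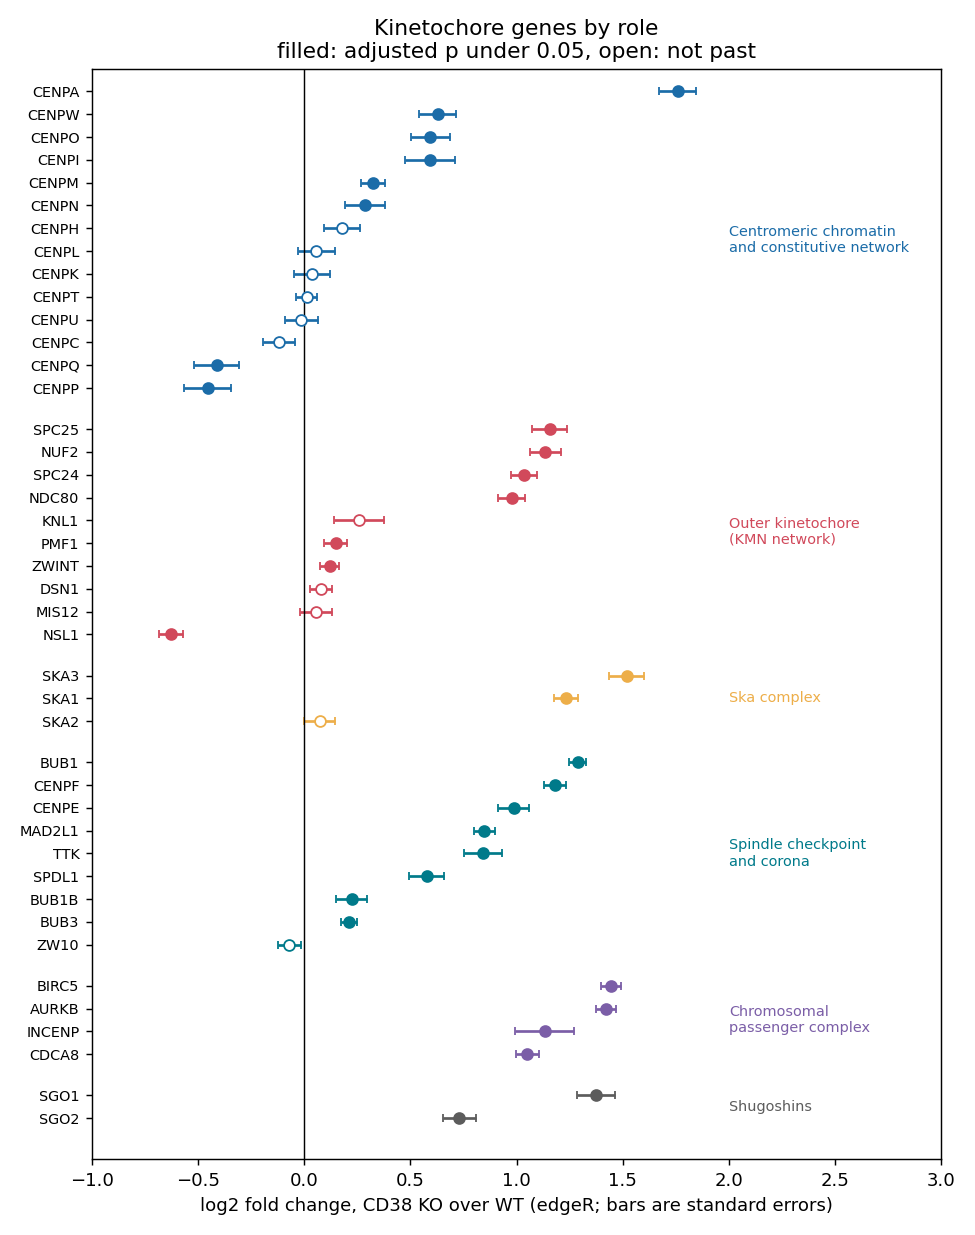
log2 fold change of CD38 KO over WT for each of the 42 kinetochore genes, ordered within 6 structural groups. Bars are standard errors derived from the edgeR test, and filled points had an adjusted p under 0.05. The passenger, checkpoint and Ska groups sit mostly to the right of 0, up to 1.52 for SKA3, while most of the constitutive network other than CENPA, at 1.76, lies within 0.63 of 0.

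Promoters are shown for genes on both sides of that split. Transcription of many mitotic genes is held down in early cycle and switched on in G2 through a cell-cycle genes homology region (CHR), often with CCAAT boxes that bind NF-Y. The RefSeq promoter table (GRCh38.p14, 250 bases before to 50 after each start) held 35 of the 42 genes. BIRC5, BUB3, CENPH, CENPL, CENPM, KNL1 and TTK had no entry. The stretches below are the 80 bases up to the start, read 5′ to 3′ on the strand of the gene, with capitals for TTTGAA, the letters of the CHR, and for the CCAAT box, which reads ATTGG when it lies on the other strand. CENPA was taken as the gene with the largest fold change, CDCA8 and INCENP as passenger genes with both motifs, BUB1B as a CHR promoter with a small fold change and NSL1 as the gene that was lowest. They lie at chr2:26785976-26786055 for CENPA, chr1:37692436-37692515 for CDCA8, chr11:62123931-62124010 for INCENP and chr15:40160989-40161068 for BUB1B, each on the plus strand, and at chr1:212791778-212791857 on the minus strand for NSL1.
CENPA: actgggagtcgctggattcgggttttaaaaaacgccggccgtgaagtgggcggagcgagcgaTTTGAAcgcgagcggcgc
CDCA8: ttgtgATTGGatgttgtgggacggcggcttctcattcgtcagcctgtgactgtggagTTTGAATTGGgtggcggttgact
INCENP: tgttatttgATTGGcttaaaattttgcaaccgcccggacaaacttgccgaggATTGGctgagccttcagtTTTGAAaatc
BUB1B: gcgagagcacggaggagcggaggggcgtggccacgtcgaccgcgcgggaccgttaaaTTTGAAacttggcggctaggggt
NSL1: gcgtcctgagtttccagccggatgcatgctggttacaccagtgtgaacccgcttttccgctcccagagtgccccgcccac
In CENPA the CHR letters lay at -18 to -13, counting the base before the start as -1. They lay at -23 to -18 in both CDCA8 and BUB1B and at -10 to -5 in INCENP. In CDCA8 the CHR letters share a base with a CCAAT box on the other strand. NSL1 had neither motif in its window of 300 bases.

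Over both strands of the 300-base windows, the letters TTTGAA were present for 17 of the 35 genes (48.6%), and for 18.2% of all 27305 promoter symbols. They were present for 8 of the 12 genes called higher by at least 2-fold, for 7 of the 12 higher by less, and for 2 of the 11 that were lower or did not pass. The last 2 were CENPC and ZW10. Of the genes higher by at least 2-fold, AURKB, SGO1, BUB1 and SPC24 lacked these letters. CCAAT letters were present for 24 of the 35 (68.6%) and for 39.7% of all symbols, at 9 of 12, 7 of 12 and 8 of 11 in the same call groups. The E2F letters searched were TTTCCCGC, then TTTGGCGC, then TTTCGCGC, and at least 1 was found for 3 of the 35 (8.57%), which were CENPA, CENPU and MIS12, and for 3.30% of all symbols. A gene with several starts counted once if any window held the letters, and base composition was not matched. A match describes letters in a window, and occupancy was not measured.

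In centromeric chromatin, CENPA stood apart from the rest of the constitutive network. CENPA (ENSG00000115163), which encodes the histone H3 variant that marks the centromere, had 2396, 2184 and 2223 reads in CD38 KO, against 686, 788 and 749 in WT. Each CD38 KO library was well above every WT library. The level was 36.7 ± 0.794 CPM in CD38 KO and 10.9 ± 1.40 CPM in WT (SD, n = 3 each), a log2 fold change of 1.76 (SE 0.0858, adjusted p = 6.50e-13) and the largest among the 42 genes. CENPC, which encodes the scaffold that binds CENP-A nucleosomes and reaches out to the Mis12 complex, had 1636, 1292 and 1519 reads in CD38 KO, against 1843, 1742 and 1762 in WT. After scaling, the groups overlapped for CENPC, with a log2 fold change of -0.12 (SE 0.0749, adjusted p = 0.218). Per kilobase of exon, the CENPA level was 6.69 ± 0.568 times that of CENPC in CD38 KO and 1.81 ± 0.177 times in WT (SD, n = 3 each). That pair and the other ratios below were chosen after the values were seen and carry no test.

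Without CENPA, the constitutive network had a median log2 fold change of 0.06 over 13 genes, and its highest gene was CENPW. CENP-W and CENP-T are histone-fold proteins that bind DNA beside CENP-A nucleosomes and recruit the Ndc80 complex. CENPW had 1084, 1021 and 1105 reads in CD38 KO, against 756, 747 and 798 in WT, with no overlap after scaling. Its level was 17.3 ± 0.464 CPM in CD38 KO and 11.2 ± 0.970 CPM in WT, a log2 fold change of 0.63 (SE 0.0889, adjusted p = 5.45e-06). Its partner CENPT had 4837, 4384 and 4800 reads in CD38 KO, against 5667, 5081 and 4723 in WT. The scaled groups overlapped for CENPT, and the 95% interval of its log2 fold change ran from -0.08 to 0.11.

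The CENP-H, CENP-I, CENP-K and CENP-M subcomplex held called and uncalled genes as well. CENPI was higher, with 10.3 CPM in CD38 KO and 6.85 CPM in WT (log2 fold change 0.59, adjusted p = 2.94e-04), and CENPM was higher at 54.4 CPM in CD38 KO and 43.4 CPM in WT (0.32, adjusted p = 6.73e-05). CENPH had 1409, 1210 and 1375 reads in CD38 KO, against 1223, 1313 and 1367 in WT, and did not pass (0.18, SE 0.0866, adjusted p = 0.107). CENPK had 1331, 1132 and 1234 reads in CD38 KO, against 1350, 1452 and 1194 in WT, and did not pass either (0.04, SE 0.0847, adjusted p = 0.773). The scaled groups overlapped for CENPH and CENPK.

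Of the pair that reads the CENP-A nucleosome, CENPN was higher at 13.5 CPM in CD38 KO and 11.1 CPM in WT (0.29, adjusted p = 0.0167). That call did not hold without CD38 KO replicate 1 (adjusted p = 0.0626), WT replicate 1 (0.0653) or WT replicate 2 (0.0664). Scaling by library size alone also removed the call (adjusted p = 0.0849). CENPN shares 12.8% of its exonic bases with CMC2. Its partner CENPL had 912, 954 and 940 reads in CD38 KO, against 1158, 944 and 907 in WT, and the groups overlapped. The interval of the CENPL log2 fold change was -0.11 to 0.23.

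The CENP-O, CENP-P, CENP-Q and CENP-U subcomplex, a docking site for the mitotic kinase PLK1, held genes that moved in opposite directions. CENPO was higher, at 14.6 CPM in CD38 KO and 9.72 CPM in WT (0.59, adjusted p = 1.78e-05). CENPP was lower, with 559, 642 and 535 reads in CD38 KO, against 841, 945 and 853 in WT. Its level was 9.39 ± 1.21 CPM in CD38 KO and 12.9 ± 1.45 CPM in WT, with no overlap (log2 fold change -0.45, SE 0.110, adjusted p = 0.00193). CENPQ was lower too and did not overlap, with 518, 426 and 502 reads in CD38 KO, against 702, 751 and 677 in WT (-0.41, SE 0.107, adjusted p = 0.00323). CENPU, whose product carries the PLK1 docking site, did not pass, with 1526, 1445 and 1721 reads in CD38 KO, against 1722, 1797 and 1727 in WT. The groups overlapped for CENPU, and the interval of its log2 fold change was -0.17 to 0.14. Exonic bases shared with a neighbour were 27.0% for CENPO (ADCY3) and 38.0% for CENPP (IPPK). How the counting divided reads there is not given in the sources used here.

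In the outer kinetochore, the 4 genes of the Ndc80 complex, the microtubule-binding rod, were higher together by close to 2-fold. SPC24 had 2883, 2908 and 2961 reads in CD38 KO, against 1724, 1473 and 1553 in WT. NUF2 had 3106, 2531 and 3089 reads in CD38 KO, against 1486, 1433 and 1477 in WT. Every CD38 KO library exceeded every WT library for both genes. SPC24, whose product anchors the rod to the inner side, was 47.3 ± 1.94 CPM in CD38 KO and 23.1 ± 0.735 CPM in WT (log2 fold change 1.04, SE 0.0623, adjusted p = 1.55e-11). NUF2, from the microtubule-binding end, was 47.0 ± 3.92 CPM in CD38 KO and 21.4 ± 1.22 CPM in WT (1.14, SE 0.0713, adjusted p = 3.00e-11). NDC80 (0.98, adjusted p = 4.64e-11) and SPC25 (1.16, adjusted p = 2.16e-10) were close to them. Within the complex the proportions overlapped between lines. Per kilobase, NDC80 was 0.912 ± 0.0650 times NUF2 in CD38 KO and 1.02 ± 0.0359 times in WT, and SPC24 was 1.15 ± 0.0517 times SPC25 in CD38 KO and 1.26 ± 0.143 times in WT.

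The Mis12 complex, which joins the Ndc80 rod to the inner kinetochore, did not follow. MIS12 had 2024, 1909 and 1861 reads in CD38 KO, against 1974, 2117 and 2083 in WT (log2 fold change 0.05, SE 0.0733, adjusted p = 0.588). DSN1, the subunit on which Aurora B acts to open the complex for the inner kinetochore, had 3789, 3409 and 3604 reads in CD38 KO, against 3978, 3841 and 3527 in WT (0.08, SE 0.0522, adjusted p = 0.238). Both genes overlapped between the lines after scaling. The 95% intervals, -0.09 to 0.20 for MIS12 and -0.02 to 0.18 for DSN1, end below the lowest interval bound of the Ndc80 genes, 0.85 for NDC80. NSL1 was lower, with 2539, 2078 and 2330 reads in CD38 KO, against 4124, 3949 and 3826 in WT. Its level was 37.4 ± 2.40 CPM in CD38 KO and 57.9 ± 1.97 CPM in WT, with no overlap (-0.63, SE 0.0586, adjusted p = 1.53e-08), the most negative value of the 42 genes. PMF1, the remaining subunit, was higher at 51.9 CPM in CD38 KO and 46.8 CPM in WT (0.15, adjusted p = 0.0309). The PMF1 call did not hold without CD38 KO replicate 2 (adjusted p = 0.0580), CD38 KO replicate 3 (0.133), WT replicate 1 (0.0630), WT replicate 2 (0.0868) or WT replicate 3 (0.0904). Library size alone (adjusted p = 0.350), upper-quartile factors (0.054) and no filter on low counts (0.1095) also removed the PMF1 call. Per kilobase, NDC80 was 1.29 ± 0.0963 times MIS12 in CD38 KO and 0.681 ± 0.0457 times in WT.

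KNL1, the scaffold that recruits the BUB proteins, had 1030, 641 and 765 reads in CD38 KO, against 798, 752 and 703 in WT. CD38 KO replicate 1 was high and replicate 2 low, and the groups overlapped. The level was 13.1 ± 2.74 CPM in CD38 KO and 10.9 ± 0.353 CPM in WT, and KNL1 did not pass (0.26, SE 0.120, adjusted p = 0.0910). Without CD38 KO replicate 1 its log2 fold change was 0.08 (adjusted p = 0.568), and without CD38 KO replicate 2 it was 0.38 (adjusted p = 0.00913). ZWINT, which links KNL1 to the corona, was 103 ± 3.81 CPM in CD38 KO and 95.1 ± 0.889 CPM in WT (0.12, adjusted p = 0.0336). The ZWINT call did not hold without CD38 KO replicate 2 (adjusted p = 0.129), WT replicate 1 (0.0875), WT replicate 2 (0.0698) or WT replicate 3 (0.0786). Library size alone (adjusted p = 0.530), upper-quartile factors (0.0730) and no filter on low counts (0.1565) also removed the ZWINT call.

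The Ska complex stabilises the hold of the Ndc80 rod on microtubules, and 2 of its 3 genes were higher. SKA1 had 4383, 3786 and 4328 reads in CD38 KO, against 2136, 1953 and 1817 in WT. SKA3 had 1774, 1978 and 1931 reads in CD38 KO, against 802, 720 and 686 in WT. Neither gene overlapped between the lines. SKA1, the microtubule-binding subunit, was 67.4 ± 3.30 CPM in CD38 KO and 28.7 ± 0.921 CPM in WT (log2 fold change 1.23, SE 0.0571, adjusted p = 2.25e-13). SKA3, the subunit that binds the Ndc80 complex, was 30.7 ± 2.77 CPM in CD38 KO and 10.7 ± 0.235 CPM in WT (1.52, SE 0.0819, adjusted p = 2.56e-12). SKA2, a core subunit of the complex, had 1988, 1785 and 1912 reads in CD38 KO, against 1928, 2063 and 1991 in WT. The SKA2 groups overlapped, and its log2 fold change of 0.07 (interval -0.07 to 0.21, adjusted p = 0.451) did not pass. Per kilobase, SKA1 was 2.34 ± 0.0765 times SKA2 in CD38 KO and 1.06 ± 0.111 times in WT, and SKA3 was 1.04 ± 0.112 times SKA2 in CD38 KO and 0.382 ± 0.0413 times in WT. Between the genes that were higher, SKA1 was 2.28 ± 0.289 times SKA3 in CD38 KO and 2.76 ± 0.0345 times in WT, without overlap. Other genes within 5 Mb of SKA3 on chromosome 13 had a median log2 fold change of 0.58, as described below.

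**Figure D2:**
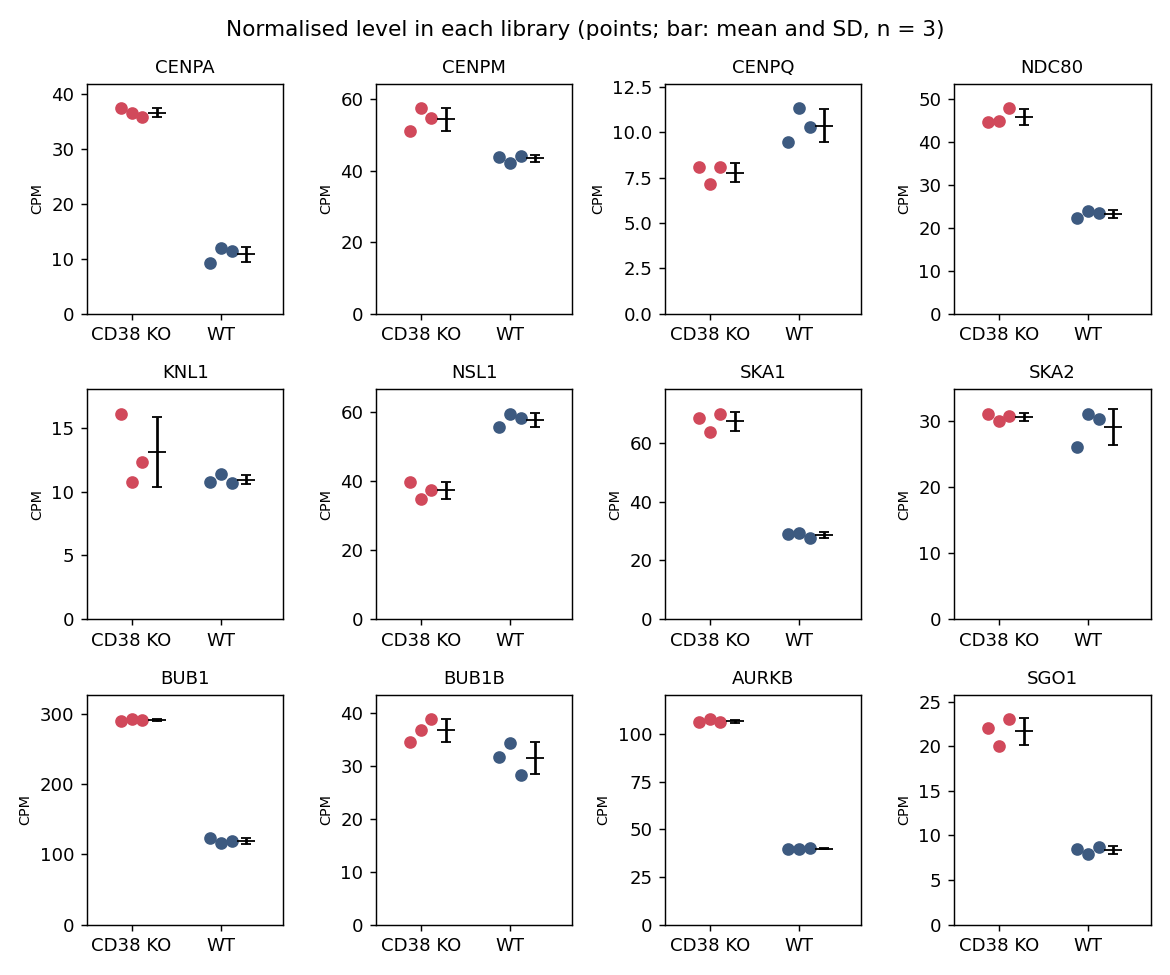
CPM (linear axis from 0) in each library, CD38 KO left and WT right, for 12 kinetochore genes that show the range of differences, with the mean and SD (n = 3) beside the points. The 3 CD38 KO points lie far above the 3 WT points for AURKB (means of 106.6 CPM in CD38 KO and 39.8 CPM in WT), below them for NSL1 and CENPQ, and overlap with them for SKA2 and KNL1.

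Of the 9 checkpoint and corona genes 8 were higher. BUB1, the kinase that marks centromeric histone H2A and gathers checkpoint proteins and shugoshin, had 18574, 17407 and 18089 reads in CD38 KO, against 9159, 7686 and 7789 in WT. Its level was 291.7 ± 1.03 CPM in CD38 KO and 119.5 ± 3.94 CPM in WT, without overlap (log2 fold change 1.29, SE 0.0403, adjusted p = 3.86e-16). This was the smallest adjusted p of the 42 genes. CENPF, a large coiled-coil corona protein that accumulates in G2, had 7015, 6200 and 7122 reads in CD38 KO, against 3755, 3142 and 3067 in WT. All 3 CD38 KO libraries were above all 3 WT libraries for CENPF (1.18, SE 0.0521, adjusted p = 9.62e-14). CENPE, the kinesin that carries chromosomes to the spindle equator, was 32.0 CPM in CD38 KO and 16.2 CPM in WT (0.99, adjusted p = 3.55e-10).

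The conserved checkpoint proteins were higher by differing amounts. MAD2L1, which encodes the MAD2 protein that binds CDC20, was 80.2 CPM in CD38 KO and 44.6 CPM in WT (log2 fold change 0.85, adjusted p = 1.83e-11). TTK, the MPS1 kinase that starts the checkpoint at unattached kinetochores, was 24.5 CPM in CD38 KO and 13.6 CPM in WT (0.84, adjusted p = 1.57e-07). SPDL1, the dynein adaptor Spindly that strips checkpoint proteins from attached kinetochores, was 21.4 CPM in CD38 KO and 14.3 CPM in WT (0.58, adjusted p = 5.63e-06). All 3 were without overlap between the lines. ZW10, part of the complex that brings Spindly to the kinetochore and a protein with a second role in membrane traffic, had 3342, 2823 and 3002 reads in CD38 KO, against 3713, 3480 and 3477 in WT. The groups overlapped for ZW10 after scaling (-0.07, SE 0.0551, adjusted p = 0.328).

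BUB3 and BUB1B were higher by much less than BUB1. BUB3, the common partner of BUB1 and BUBR1, was 274.5 ± 5.45 CPM in CD38 KO and 237.0 ± 2.79 CPM in WT (log2 fold change 0.21, adjusted p = 8.72e-05). BUB1B, which encodes BUBR1 of the mitotic checkpoint complex, was 36.7 ± 2.17 CPM in CD38 KO and 31.5 ± 3.06 CPM in WT (0.22, adjusted p = 0.0166). The BUB1B groups lay close, at 34.5 to 38.8 CPM in CD38 KO and 28.3 to 34.4 CPM in WT. The BUB1B call did not hold without CD38 KO replicate 3 (adjusted p = 0.0836) or WT replicate 3 (0.140). Scaling by library size alone also removed the BUB1B call (adjusted p = 0.144). Per kilobase of merged exon, BUB1 was 1.46 ± 0.0286 times BUB3 in CD38 KO and 0.694 ± 0.0283 times in WT, so on this scale the order of the pair differed between the lines. BUB1B was 0.248 ± 0.0115 times BUB3 in CD38 KO and 0.246 ± 0.0258 times in WT, which overlapped.

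All 4 genes of the chromosomal passenger complex were higher by at least 2-fold. BIRC5, which encodes survivin, the subunit that reads the phosphorylated histone mark at centromeres, had 10352, 9673 and 10456 reads in CD38 KO, against 4213, 4206 and 3987 in WT. AURKB, the Aurora B kinase, had 6782, 6404 and 6571 reads in CD38 KO, against 2941, 2616 and 2640 in WT. Both were far from overlapping. BIRC5 was 164.4 ± 3.81 CPM in CD38 KO and 60.4 ± 3.29 CPM in WT (log2 fold change 1.45, SE 0.0477, adjusted p = 9.55e-16). AURKB was 106.6 ± 0.882 CPM in CD38 KO and 39.8 ± 0.361 CPM in WT (1.42, SE 0.0472, adjusted p = 1.06e-15). CDCA8, which encodes borealin, was higher at 101.4 CPM in CD38 KO and 48.9 CPM in WT (1.05, adjusted p = 1.62e-12). INCENP, the scaffold that holds and activates Aurora B, was at 10.4, 8.13 and 7.39 CPM in CD38 KO, against 4.08, 4.18 and 3.56 CPM in WT (1.13, SE 0.139, adjusted p = 8.11e-07).

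INCENP was by far the least abundant passenger transcript. Per kilobase, AURKB was 25.1 ± 4.29 times INCENP in CD38 KO and 20.3 ± 1.97 times in WT, and the groups overlapped. The ratios of BIRC5 and of CDCA8 to INCENP overlapped as well. Summed over the complex, the level was 381.0 ± 2.64 CPM in CD38 KO and 153.0 ± 0.0780 CPM in WT, a ratio of 2.49 and the highest of the 6 groups. The WT SD of the sum was far below the WT SDs of BIRC5 (3.29) and CDCA8 (3.14), which ran in opposite directions over the WT libraries. The same ratio of sums was 2.02 for the shugoshins, 1.88 for the Ska genes, 1.60 for the checkpoint and corona, 1.23 for the KMN network and 1.17 for the constitutive network with CENPA.

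The shugoshins guard centromeric cohesin until anaphase, and both were higher. SGO1 had 1406, 1193 and 1426 reads in CD38 KO, against 625, 526 and 573 in WT. SGO2 had 1419, 1319 and 1369 reads in CD38 KO, against 1012, 903 and 839 in WT. The groups did not overlap for either gene. SGO1 was 21.7 ± 1.51 CPM in CD38 KO and 8.37 ± 0.398 CPM in WT (log2 fold change 1.37, SE 0.0884, adjusted p = 4.58e-11), and SGO2, which also binds the microtubule depolymerase MCAK, was 22.2 ± 0.0475 CPM in CD38 KO and 13.4 ± 0.507 CPM in WT (0.73, SE 0.0772, adjusted p = 9.77e-08). SGO1 shares 17.7% of its exonic bases with its antisense gene SGO1-AS1.

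**Figure D3:**
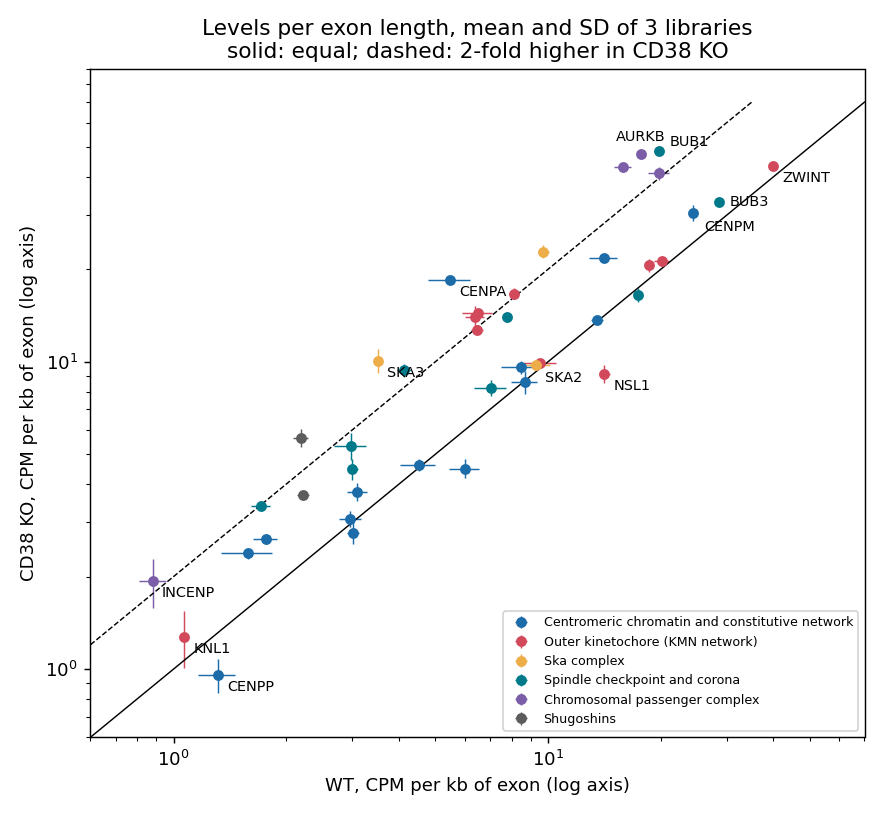
Level of each kinetochore gene in CPM per kilobase of exon, CD38 KO on the vertical and WT on the horizontal log axis, as means with SD bars of 3 libraries; the solid line marks equal levels and the dashed line a 2-fold higher level in CD38 KO. BUB1 and AURKB lie on the dashed line or above it, at 48.4 and 47.6 in CD38 KO, while ZWINT and BUB3 lie near the solid line and NSL1 and CENPP below it.

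Levels per kilobase of merged exon ordered the genes differently in each line. In CD38 KO the highest were BUB1 at 48.4 ± 0.172, AURKB at 47.6 ± 0.394, ZWINT at 43.4 ± 1.60, BIRC5 at 43.1 ± 0.999 and CDCA8 at 41.1 ± 1.97 CPM per kilobase. BUB1 and AURKB did not overlap in spread, while ZWINT, BIRC5 and CDCA8 lay within about their SDs of a neighbour. In WT the highest were ZWINT at 40.0 ± 0.374, BUB3 at 28.6 ± 0.337 and CENPM at 24.4 ± 0.590, and BUB1 stood at 19.8 ± 0.653. The lowest in both lines were CENPP, KNL1 and INCENP, at 0.959, 1.28 and 1.93 in CD38 KO and at 1.31, 1.07 and 0.881 in WT.

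Some kinetochore genes lie where their chromosomal neighbours also differed. Among other tested genes of at least 5 CPM within 5 Mb, a window chosen after the values were seen, the median log2 fold change was under 0.25 in size for 39 of the 42 genes. The exceptions were SKA3 (GRCh38 chr13:21153595-21176602), whose 25 neighbours had a median of 0.58, and BUB1B (chr15:40161023-40221136) and KNL1 (chr15:40594020-40664342), with medians of -0.58 over 59 neighbours and -0.59 over 62. SKA3 was above its neighbours' median by 0.94 and higher than 23 of the 25. BUB1B was above its neighbours' median by 0.80 and higher than 57 of the 59, and KNL1 was above by 0.85 and higher than 60 of the 62. The windows of BUB1B and KNL1 overlap almost entirely, so their medians describe the same region. Over whole chromosomes, tested genes of at least 5 CPM had a median of 0.49 on chromosome 13 (183 genes). That median was -0.16 on chromosome 12 (554 genes) and -0.01 on chromosome 15 (314 genes). Of the 42 genes, 33 lay above the median of their neighbours. The part of these neighbourhoods in the values of the 3 genes was not tested.

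**Figure D4:**
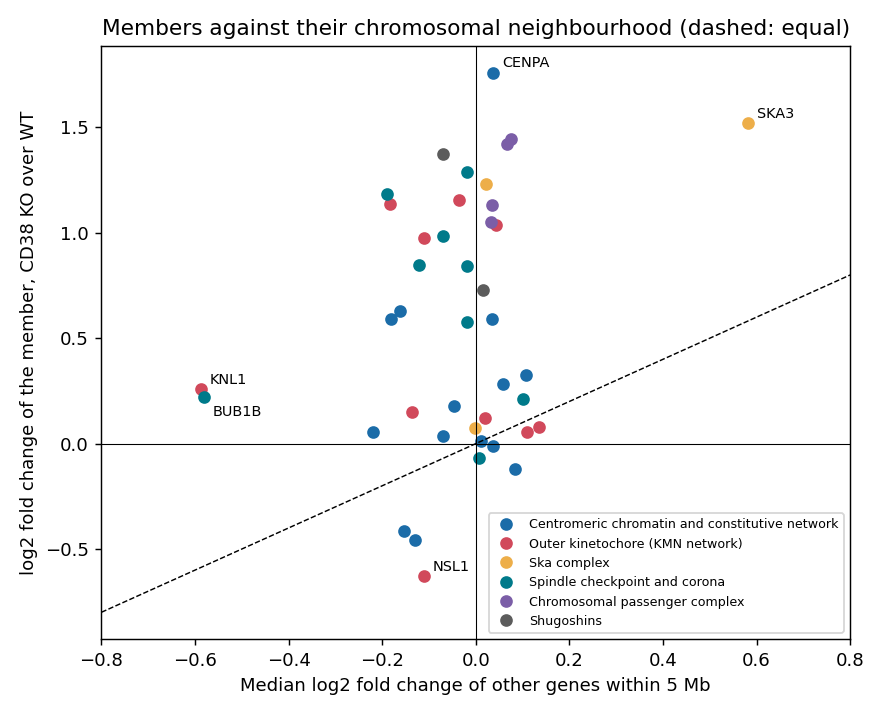
log2 fold change of each kinetochore gene (vertical) against the median log2 fold change of other tested genes within 5 Mb (horizontal); the dashed line marks equality. KNL1 and BUB1B stand at the left, near -0.58 on the horizontal axis, and SKA3 at the right, at 0.58, while the other 39 genes have neighbourhoods within 0.25 of 0.

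Partner genes were counted in 6 further lists of 112 distinct genes, of which 84 were called. The lists share AURKA, CCNB1, CDC20, CDK1, KIF2C, PLK1 and PTTG1, which are counted in each list that holds them. Their counts stand beside the shares over all genes tested, 22.8% higher and 21.6% lower, and those at the kinetochore genes' level, 32.1% higher and 30.7% lower. Of 11 genes listed for CENP-A loading, as other inner subunits or by a related name, 4 were higher and 2 lower (median log2 fold change 0.13). CENPBD1P1 (0.42), whose symbol is that of a pseudogene, was among the higher and was named after its values were seen. HJURP, the chaperone that loads CENP-A, was higher at 34.8 CPM in CD38 KO and 15.3 CPM in WT (1.19, adjusted p = 1.72e-11). CENPX, a histone-fold partner of CENP-T, was lower at 43.5 CPM in CD38 KO and 57.5 CPM in WT (-0.40, adjusted p = 9.79e-06), and CENPV was lower at 0.130 CPM in CD38 KO and 1.33 CPM in WT (-3.34, adjusted p = 7.25e-08).

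Of 18 corona and checkpoint partners, 10 were higher and 2 lower (median 0.29). The smallest adjusted p values there were those of CDC20, the checkpoint's target (1.91, adjusted p = 3.79e-18), the depolymerase KIF2C (1.50, adjusted p = 1.30e-15) and the spindle protein SPAG5 (0.93, adjusted p = 2.11e-13). The 2 lower genes of this list were KNTC1 (-0.48, adjusted p = 0.00227) and ZWILCH (-0.34, adjusted p = 7.36e-04), named after their values were seen. Of 15 kinetochore kinases and phosphatases, 8 were higher and 3 lower (median 0.18), with the smallest adjusted p for CCNB1 (1.91), PLK1 (1.78) and AURKA (1.56). Of 15 cohesin and separase genes, 7 were higher and 3 lower (median 0.10). Among these the securin PTTG1 (1.49, adjusted p = 1.45e-15) and the cohesin protector CDCA5 (0.85, adjusted p = 3.16e-10) were higher, and SMC3, a ring subunit of cohesin, was lower (-0.41, adjusted p = 1.23e-07).

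The last lists hold cell cycle genes that are not among the 42, and the G2 and M list holds all 7 shared genes. Of 30 other G2 and M phase genes 29 were higher and none lower, with a median of 1.36 and summed levels of 3068 ± 11.7 CPM in CD38 KO and 1178 ± 25.4 CPM in WT. Of 30 G1 and S phase genes 1 was higher and 22 lower, with a median of -0.43 and summed levels of 2859 ± 33.2 CPM in CD38 KO and 3587 ± 61.3 CPM in WT. In the G1 and S list, the uracil glycosylase UNG was lower (-1.17, adjusted p = 3.04e-14), as was the helicase subunit MCM6 (-0.83, adjusted p = 4.19e-13), and the reductase subunit RRM2 was the gene that was higher (0.74, adjusted p = 7.32e-13). Among the 42 kinetochore genes, 5 lay above the G2 and M median of 1.36: CENPA, SKA3, BIRC5, AURKB and SGO1. Cell cycle stage was not measured, and the part of a shift in stage in the kinetochore values was not tested.

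**Figure D5:**
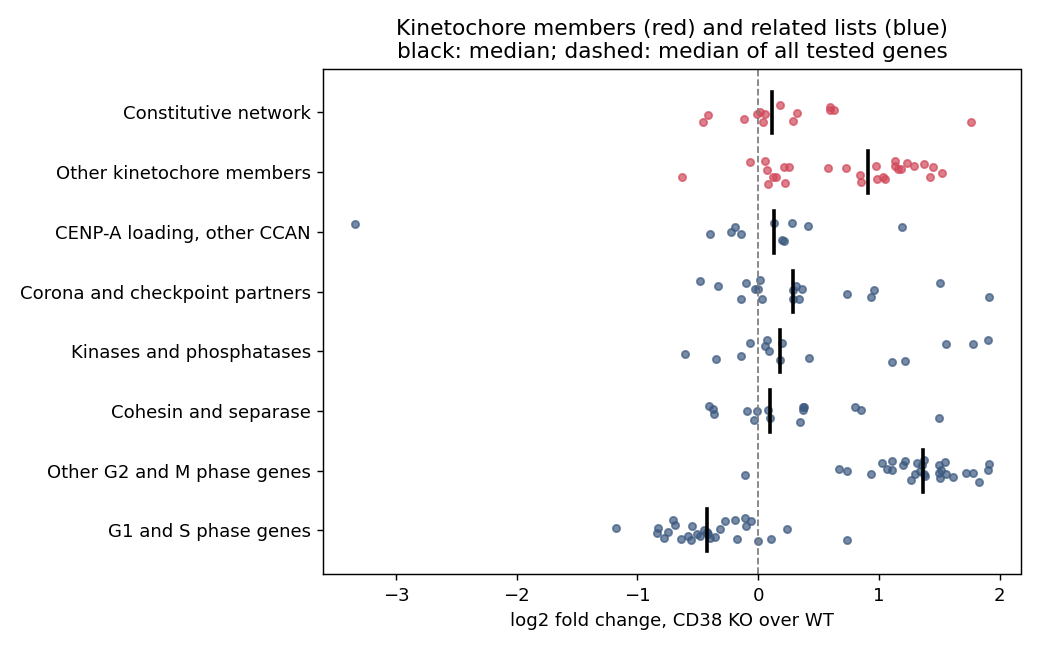
log2 fold change of CD38 KO over WT for the kinetochore genes inside and outside the constitutive network (red) and for 6 partner and cell cycle lists (blue), 1 point per gene, with a black bar at the median and a dashed line at the median of all tested genes. The kinetochore genes outside the constitutive network have a median of 0.91, between the other G2 and M phase genes at 1.36 and the constitutive network at 0.12.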

How the data were processed

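RNA of 6 MM.1S libraries, 3 from a CD38 KO clone and 3 from WT cells, was sequenced from 10 ng of total RNA with the SMARTer Ultra Low kit, per the labels' protocols. The values are raw read counts per gene, deposited by the authors in 1 table. Tools listed in the submitters' processing notes, with no role, are STAR 2.7.9a, DESeq2 and Partek. The build, annotation, counting program and strand setting were not given in the sources used here. Overlapping or antisense genes may therefore share reads. The table held 60871 lines, of which 200 repeated an identifier and were dropped, leaving 60671 genes. Counts per library totalled 61515519 to 72335496. Libraries of the same line differed beyond counting noise (chi-square per degree of freedom 5.49 or more over the 6 pairs).

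edgeR 4.0.16 (R 4.3.3) was run on the whole table as a quasi-likelihood test of CD38 KO over WT, using TMM factors, filterByExpr and robust dispersions, without covariates. Benjamini-Hochberg adjustment covered the 20120 genes tested, and calls were made at 0.05. Standard errors were derived from the test, as the size of the log2 fold change divided by the square root of its F statistic. Intervals are 95% intervals of 1.96 such standard errors to each side, a normal quantile that makes them somewhat narrower than the test implies. For CENPH the interval ran from 0.007 to 0.347, although the unadjusted p of the quasi-likelihood test was 0.0543. The test was tried on simulated counts before use. Alternatives were other scalings and filters, DESeq2 1.42.0, limma-voom (limma 3.58.1), a replicate block, a test against a 2-fold change, leaving out chromosomes 12, 13 and 15, and leaving out each library.

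Exon lengths and gene positions came from GENCODE release 29, and promoters from RefSeq. Lengths are those of the merged exons of all annotated transcripts of a gene. Which transcripts were expressed was not determined, so the order of different genes per kilobase depends on these lengths. The 42 genes, the other lists and the rule for naming genes were chosen with earlier results of these data known. By that rule, reads in every library are given for the 2 genes with the smallest adjusted p in each structural group, for each gene called lower and for each gene that did not pass, and at most 3 genes of each other list are named. Any other gene was named after its values were seen. Some results that would need certain genes are not reported here.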

Additional observations from a re-analysis of the deposited data

How the results depend on the processing

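No called kinetochore gene changed sign under the 16 alternatives. RLE factors, DESeq2, limma-voom and a minimum of 1 CPM in 3 libraries left 28 kinetochore genes higher and 3 lower. Over all genes these gave, in that order, 4515 higher and 4401 lower, 4456 and 4366, 4596 and 4402, and 4152 and 3901. Upper-quartile factors and no filter on low counts left 26 higher and 3 lower. Over all genes, upper-quartile factors gave 4419 higher and 4529 lower, and no filter gave 4362 and 4577, in place of 4592 and 4342. Library size alone, which shifts the median of all genes by -0.08, gave 24 higher and 5 lower with a median of 0.50. CENPC (-0.20, adjusted p = 0.0354) and ZW10 (-0.15, adjusted p = 0.0288) then passed as lower, and CENPN, ZWINT, PMF1 and BUB1B lost their calls. ZWINT and PMF1 also lost their calls with upper-quartile factors and with no filter on low counts. Tested against a 2-fold change, 8 kinetochore genes were higher (CENPA, SKA1, SKA3, BUB1, CENPF, AURKB, BIRC5 and SGO1) and 0 lower, of 1061 genes over the table (556 higher, 505 lower), and 25 genes of the other lists passed in place of 84. Leaving out 1 library at a time gave 25 to 27 higher, 3 lower, a median of 0.51 to 0.62 and 7767 to 8761 genes called over the table. Without chromosomes 12, 13 and 15, on which SKA3, BUB1B and KNL1 lie, 26 were higher and 3 lower, with a median of 0.59. Apart from the 2-fold test, 27 of the 31 calls held under each of the 15 alternatives that tested them, SKA3 having no value without chromosome 13. The exceptions were CENPN, ZWINT, PMF1 and BUB1B, with small fold changes.

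Libraries of the 2 lines carry the same replicate numbers. The deviations of same-numbered libraries correlated at -0.02 to 0.03, and those of differently numbered libraries at -0.02 to 0.04. These values show no pairing by number, though they could miss a shared step that affected few genes. With a replicate block, 28 kinetochore genes were higher and 3 lower, the median was 0.58, and 8918 genes were called over the table. Groups of 3 and 1 clone limit the comparison, and a difference between clones of this line cannot be told apart from the knockout. Kinetochore genes had 426 to 18574 reads in CD38 KO and 234 to 17355 in WT, and INCENP, at the low end, had the largest standard error.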

Other observations

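MAD1L1, the partner that anchors MAD2 at the kinetochore, had 18, 4 and 10 reads in CD38 KO, against 13, 13 and 10 in WT, far fewer than any of the 42 kinetochore genes. NUSAP1, a spindle protein on the G2 and M list, had 36, 31 and 22 reads in CD38 KO, against 42, 30 and 35 in WT, and was the gene of that list that did not pass. PRC1, which bundles the central spindle, had 89, 101 and 110 reads in CD38 KO, against 45, 39 and 44 in WT. These 3 genes were named after their values were seen, and how the counting treated them is not given in the sources used here. Of the 42 kinetochore genes, 7 have an annotated pseudogene bearing their name, and the highest count of any of these pseudogenes in a library was 78.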
